A study of Mus musculus with 6 samples.

Results

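The T cell receptor signalling genes described here are 44 named mouse genes that carry a signal from the T cell receptor to the nucleus or restrain it. A gene was measured by a probe set annotated with that gene symbol alone, and where several qualified the one with the highest mean log2 signal over the 6 arrays was taken. This gave 43 of the 44 genes, out of 18193 genes that had such a probe set, and all 43 passed the filter on dim probe sets. Lck was not analysed here. The study asked which genes of CD4+ T cells respond to retinoic acid. Mouse CD4+ T cells from spleen, peripheral and mesenteric lymph nodes were cultured in vitro, and their RNA was hybridised to 2 arrays in each of 3 groups, labelled Control, RA and Ro. The labels do not expand RA or Ro and give no dose, strain or age. A culture protocol stands with Control replicate 2 alone: human IL-2 and TGF-b1, mouse IL-6, IL-1b, IL-23, IL-21 and TNF-a, and antibodies to mouse IL-4 and IFN-gamma, for 5 days. The sources used here do not say whether the other 5 arrays shared it.

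The T cell receptor has no enzyme of its own. When it binds peptide on an MHC molecule, Src-family kinases phosphorylate the tails of the CD3 and zeta chains, Zap70 docks there and phosphorylates the adaptors Lat and SLP-76, and phospholipase C gamma 1 then opens the calcium, Ras and NF-kB branches. Phosphatases, ubiquitin ligases and diacylglycerol kinases set how strong and how long that signal is. Transcript levels, which the arrays measure, say nothing of phosphorylation.

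Levels are given as relative levels, that is, the signal plus a pseudocount divided by the same quantity at the median probe set of that array. A relative level of 80.0 thus means 80.0 times the array median. Probes of different genes differ in brightness, so only levels of 1 gene across arrays can be compared. Differences are log2 differences of group means with their standard error (SE, 2 arrays a group), and a negative value of RA minus Ro means a lower level in RA.

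The 6 arrays were not equally alike. Control 2 had the lowest median signal, 16.2 against 17.7 to 23.7. Over all 45037 probe sets but the platform's controls, it correlated with the others at 0.911 to 0.917. The other 5 correlated among themselves at 0.961 to 0.972. T cell transcripts were visible in all 6: the CD3 chains were far above the array median, and Cd4 lay between 24.2 and 73.4 times it. Of the CD8 genes, Cd8a lay between 0.588 and 2.91 times it and Cd8b1 between 2.78 and 6.83 times it. Of 5 listed NK cell markers 4 were analysed, and their summed relative level was 23.2 on Control 1, 272 on Control 2, 32.1 and 35.8 in RA, and 115 and 45.1 in Ro, where Klrd1, Nkg7 and Klrk1 made up the sum on Control 2 at 107, 132 and 32.7, against 8.80, 12.8 and 1.08 on Control 1. The fourth, Ncr1, a receptor that defines NK cells, did not pass the filter and lay between 0.437 and 0.636. The 7 mast cell and basophil markers summed to 145 and 9.50 in Control, 75.4 and 60.1 in RA, and 253 and 158 in Ro. Of 12 cell cycle genes 11 were analysed, with sums of 549 and 155 in Control, 1187 and 804 in RA, and 1342 and 417 in Ro. Macrophage markers (6 of 7 analysed) summed to 60.6 and 6.21 in Control, 22.1 and 18.0 in RA, and 41.2 and 14.0 in Ro, and the CD8, B cell and dendritic cell lists stayed at or below 7.79 on every array. Differences from Control are therefore also given without Control 2.

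**Figure D1:**
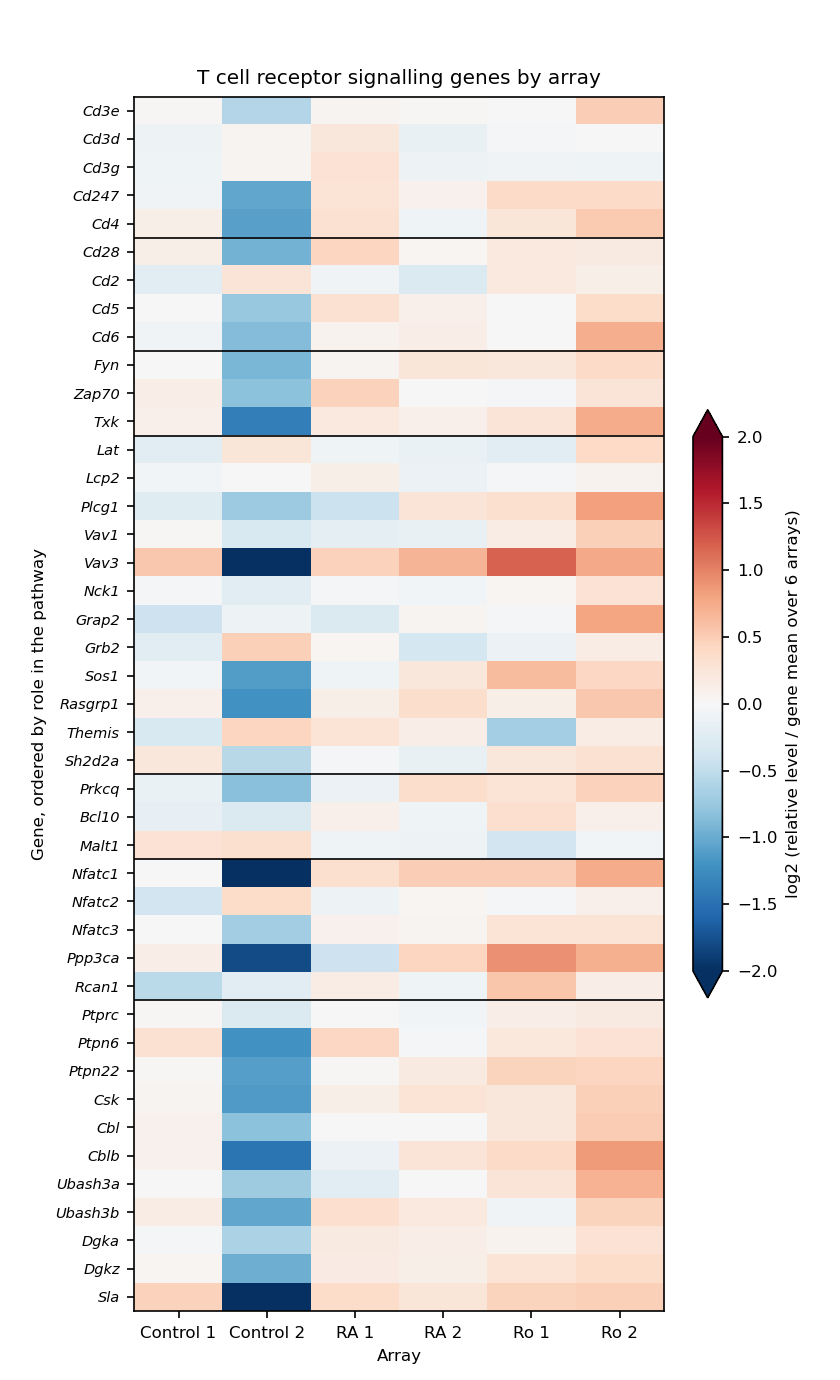
Relative levels of the 43 genes (rows, ordered by role, with lines between roles) on the 6 arrays (columns), as log2 of the level over the mean of that gene on the 6 arrays, with colour limits at 2 and -2. The Control 2 column is the bluest for 32 of the 43 genes, and the Ro 2 column holds the highest level of 24.

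Much of the spread among the 43 genes lay in 1 array. The highest level of a gene was a median of 2.45-fold above its lowest over all 6 arrays and 1.41-fold without Control 2, against 2.23- and 1.69-fold over all genes tested. Control 2 had the lowest level of the 6 arrays for 32 of the 43 (74.4%), against 38.7% of the 12948 genes tested. With quantile normalization the count was again 32, against 32.3% of genes, and with the values as deposited 36, against 50.5%. Control 2 had the highest level for 5 of the 43, against 28.3% of genes. With quantile normalization it did so for 3, against 35.5%, and as deposited for 0, against 17.6%. The median relative level of the 43 genes was 60.7 on Control 1 and 35.2 on Control 2, 63.4 and 65.5 in RA, and 68.7 and 82.5 in Ro. From Control 1 to Control 2 the median log2 difference was -0.76 over the 43 genes and 0.02 over all genes tested. In 12 of the 43 genes (27.9%), against 8.86% of all genes tested, Control 2 lay at least 2-fold below each of the other 5 arrays. The highest level fell on Ro 2 for 24 of the 43, against 28% of all genes tested, for 19 with quantile normalization, against 20.2%, and for 29 as deposited, against 36.2%. These are ranks of single arrays, with no test. In RNA from a whole culture, fewer cells of a type and less RNA per cell cannot be told apart.

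The receptor chains did not move as 1 block. Cd3d, Cd3g, Cd3e and Cd247 encode the CD3 delta, gamma and epsilon chains and the zeta chain, the signalling tails of the receptor. Cd3d was 281 and 315 in Control, 353 and 273 in RA, and 294 and 305 in Ro. Cd3g was 178 and 196 in Control, 231 and 178 in RA, and 182 and 179 in Ro. For both genes the groups overlapped and, with arrays centred, Control 2 lay inside the range of the other arrays. As deposited, Control 2 was lowest for both. Cd3d was then 6059 there against 6493 to 7512 elsewhere, and Cd3g 3778 against 4173 to 4784. Cd247 was 97.7 and 49.8 in Control, 124 and 109 in RA, and 134 and 134 in Ro, so both RA arrays lay above Control and below Ro. This order rests on 1 probe set. A further probe set of Cd247 had 79.9 and 17.3 in Control, 97.7 and 64.1 in RA, and 72.2 and 72.7 in Ro. With quantile normalization the RA and Ro arrays of the chosen probe set overlapped. Cd3e was 80.0 and 52.6 in Control, 82.4 and 80.4 in RA, and 79.0 and 112 in Ro. Of these 4 chains, Cd3e and Cd247 were lowest on Control 2 with arrays centred. The coreceptor Cd4, which binds MHC class II, was 55.3 and 24.2 in Control, 63.3 and 48.1 in RA, and 60.4 and 73.4 in Ro, again lowest on Control 2.

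The start regions of 4 genes are shown. With arrays centred, 2 of them, Cd3d and Cd3g, were not lowest on Control 2, and the other 2, Cd247 and the ubiquitin ligase gene Cblb, were. Each is the 250 bases before the gene start from RefSeq on GRCm38.p6, read 5′ to 3′ on the strand of the gene, with capitals for GGAAA or TTTCC, the core letters bound by NFAT and by several other factors. The windows are Cd3d at chr9:44981536-44981785 on the plus strand, Cd3g at chr9:44980432-44980681 on the minus strand, Cd247 at chr1:165788431-165788680 on the plus strand, and Cblb at chr16:52031299-52031548 on the plus strand.
Cd3d: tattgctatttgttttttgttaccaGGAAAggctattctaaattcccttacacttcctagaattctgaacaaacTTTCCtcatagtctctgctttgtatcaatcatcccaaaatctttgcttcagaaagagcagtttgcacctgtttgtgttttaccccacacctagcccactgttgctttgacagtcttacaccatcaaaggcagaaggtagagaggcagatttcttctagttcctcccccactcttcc
Cd3g: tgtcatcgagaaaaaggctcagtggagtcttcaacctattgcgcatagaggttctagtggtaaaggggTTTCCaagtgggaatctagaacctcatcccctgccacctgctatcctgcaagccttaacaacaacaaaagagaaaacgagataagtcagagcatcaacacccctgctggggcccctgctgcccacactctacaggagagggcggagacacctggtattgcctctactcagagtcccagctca
Cd247: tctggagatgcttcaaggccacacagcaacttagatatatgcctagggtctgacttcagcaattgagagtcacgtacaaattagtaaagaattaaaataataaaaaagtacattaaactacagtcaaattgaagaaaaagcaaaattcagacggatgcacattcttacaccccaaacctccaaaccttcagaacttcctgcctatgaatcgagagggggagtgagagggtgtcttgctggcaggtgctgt
Cblb: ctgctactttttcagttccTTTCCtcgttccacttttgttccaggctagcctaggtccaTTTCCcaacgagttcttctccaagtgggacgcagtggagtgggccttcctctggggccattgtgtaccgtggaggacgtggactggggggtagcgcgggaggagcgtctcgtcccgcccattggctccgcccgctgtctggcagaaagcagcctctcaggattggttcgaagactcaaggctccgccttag
Cd3d and Cd3g are neighbours transcribed away from each other, with starts 1355 bases apart. The NFAT core was found 2 times in the Cd3d window, 1 time in that of Cd3g, 0 times in that of Cd247 and 2 times in that of Cblb. A window was matched for 34 of the 43 genes, and 27 of these (79.4%) held GGAAA on either strand, against 58.8% of 27025 genes. Windows on 1 chromosome were left out, both for the 43 genes and for the background. Nfatc1 and Malt1 were among the genes without a window. The nuclear receptor half-site AGGTCA, the letters that retinoic acid receptors bind in pairs, stood on either strand in 7 (20.6%), against 15.8% of all genes. The Runx letters TGTGGT stood in 4 (11.8%), against 15.9%. These shares count a gene once over all its start windows, and the 34 genes had 53 windows. Counted per window, GGAAA stood in 67.9% against 55.6% of all windows, AGGTCA in 13.2% against 14.0%, and TGTGGT in 7.55% against 14.1%, so the half-site was above the background per gene and below it per window. The 3 motifs were counted separately, even where matches overlapped, and a match describes the sequence only.

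Among the surface receptors that tune the signal, Cd2 stood apart from the rest. Cd28, the main costimulatory receptor, was 132 and 63.5 in Control, 165 and 126 in RA, and 139 and 138 in Ro. Cd5 and Cd6, scavenger-receptor proteins that dampen the signal, were likewise lowest on Control 2, at 85.1 and 37.1, with 144 to 185 and 64.5 to 112 on the other arrays. Cd2, an adhesion receptor, was 163 and 226 in Control, 179 and 155 in RA, and 217 and 205 in Ro, with its highest level on Control 2. As deposited, Cd2 was highest on Ro 2, at 4999.6 against 4348.1 on Control 2.

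The 3 kinases measured shared the low value on Control 2. Zap70 was 79.4 and 41.0 in Control, 99.7 and 73.1 in RA, and 70.7 and 86.5 in Ro. Fyn, a Src-family kinase, was 41.8 on Control 2 and 77.7 to 103 elsewhere. Txk, a Tec-family kinase, was 23.1 and 8.32 in Control, 24.7 and 23.1 in RA, and 25.8 and 36.0 in Ro, at its highest on Ro 2.

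The adaptors and exchange factors held both the steadiest and the most variable genes. Lcp2, which encodes SLP-76, stayed between 97.2 and 115 on all 6 arrays. Lat, the membrane adaptor that SLP-76 joins, was 120 and 164 in Control, 131 and 126 in RA, and 120 and 183 in Ro, high on Control 2 and Ro 2. As deposited, Lat was 3157 on Control 2 against 3198 on Control 1, and highest on Ro 2, at 4466. Vav3, a guanine nucleotide exchange factor, was 19.5 and 1.08 in Control, 18.6 and 21.5 in RA, and 30.4 and 22.8 in Ro. On Control 2 it was thus near the array median, 18.0-fold below Control 1, and all 3 of its probe sets showed a gap of 7.63- to 21.0-fold. Vav1, its close relative, ran only from 15.9 on Control 2 to 27.2 on Ro 2. Rasgrp1, which turns on Ras at the membrane in response to diacylglycerol, was 69.5 and 28.1 in Control, 70.5 and 82.6 in RA, and 70.9 and 94.3 in Ro. Sos1, the other Ras exchange factor of the list, was 11.5 and 5.55 in Control, 11.2 and 14.0 in RA, and 18.5 and 15.9 in Ro. Its adaptor partner Grb2 went the other way on Control 2, at 38.9 against 21.9 to 30.9 on the other 5 arrays. As deposited, Grb2 was 745 on Control 2 and highest on Ro 2, at 753. Plcg1, the phospholipase that makes the second messengers, was 46.4 and 33.1 in Control, 40.9 and 65.5 in RA, and 68.8 and 96.6 in Ro. Themis, an adaptor needed for thymocyte selection, was 16.6 and 27.7 in Control, 24.7 and 22.6 in RA, and 12.8 and 22.8 in Ro, so its replicates lay well apart in both Control and Ro. Nck1, Grap2 and Sh2d2a, 3 more adaptors, ran from 11.2 to 16.1, from 5.52 to 12.8 and from 45.7 to 82.5.

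In the NF-kB branch, Malt1 differed from its partners. Prkcq encodes protein kinase C theta, which leads to the complex of Bcl10 and Malt1. Prkcq was 88.3 and 54.4 in Control, 89.6 and 123 in RA, and 117 and 134 in Ro, and Bcl10 was 38.4 and 35.2, 46.4 and 40.6, and 54.1 and 45.9. Malt1, the protease and scaffold of the complex, was 33.6 and 34.3 in Control, 25.7 and 25.6 in RA, and 21.1 and 26.3 in Ro, so the 2 Control arrays matched each other and lay above the other 4. The other 2 probe sets of Malt1 also placed both Control arrays above all 4 others, with 25.7 and 59.3 in Control against 16.5 to 24.1, and with 27.0 and 28.3 against 11.3 to 20.2.

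The calcineurin and NFAT genes held some of the widest gaps. Nfatc1 was 31.2 and 7.37 in Control, 38.7 and 43.4 in RA, and 43.3 and 51.5 in Ro. Ppp3ca, the alpha catalytic subunit of calcineurin, the phosphatase that frees NFAT to enter the nucleus, was 14.6 and 3.85 in Control, 10.0 and 17.8 in RA, and 25.1 and 21.8 in Ro. Both were lowest on Control 2, 4.23- and 3.79-fold below Control 1, as were 4 of the 5 probe sets tested for Nfatc1 and all 3 for Ppp3ca. Nfatc3 ran from 31.9 on Control 2 to 62.4 on Ro 1, but Nfatc2 was highest on Control 2, at 28.5 against 17.0 to 23.7 elsewhere. As deposited, Nfatc2 was 546 on Control 2 and highest on Ro 2, at 577. Of the 6 probe sets tested for Nfatc2, 2 were lowest on Control 2, so its probe sets disagreed. Rcan1, a calcineurin regulator that is itself an NFAT target, was low throughout, from 2.30 on Control 1 to 4.89 on Ro 1.

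With arrays centred on their medians, all 11 genes grouped as phosphatases, ubiquitin ligases and other regulators were lowest on Control 2. Sla, an adaptor that promotes loss of the receptor from the surface, was 207 and 37.8 in Control, 194 and 177 in RA, and 204 and 208 in Ro. Its other 5 arrays were close together, and all 4 of its probe sets were lower on Control 2 than on Control 1, by 4.11- to 14.8-fold. Cblb, a ubiquitin ligase that keeps T cells tolerant without costimulation, was 47.1 and 16.1 in Control, 40.7 and 52.8 in RA, and 57.7 and 80.3 in Ro. Csk, the kinase that holds Src-family kinases inactive, was 60.7 and 26.7 in Control, 63.4 and 71.0 in RA, and 68.7 and 81.9 in Ro. Dgkz, a diacylglycerol kinase that ends Ras signalling, was 186 and 92.2 in Control, 204 and 197 in RA, and 220 and 233 in Ro. Ubash3a and Ubash3b, paralogues that encode the Sts proteins, differed in where the Ro arrays of the chosen probe sets lay. Ubash3a was 15.7 and 9.67 in Control, 13.6 and 15.8 in RA, and 18.9 and 25.6 in Ro. Ubash3b was 28.9 and 12.7, 32.9 and 30.0, and 24.8 and 35.4. In the other probe set of Ubash3a, Ro was 6.31 and 10.9, on either side of RA at 7.59 and 8.22. Its log2 difference RA minus Ro was -0.07. Ptpn6, which encodes the phosphatase SHP-1, was 37.1 on Control 2 and 84.7 to 114 elsewhere, though the other probe set of Ptpn6 was not lowest there. Ptpn22 was 46.1 on Control 2 against 100.2 to 135. Ptprc, which encodes CD45, had a narrow range, from 229.8 to 319. Cbl ran from 25.7 to 64.5 and Dgka from 119.9 to 227.

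**Figure D2:**
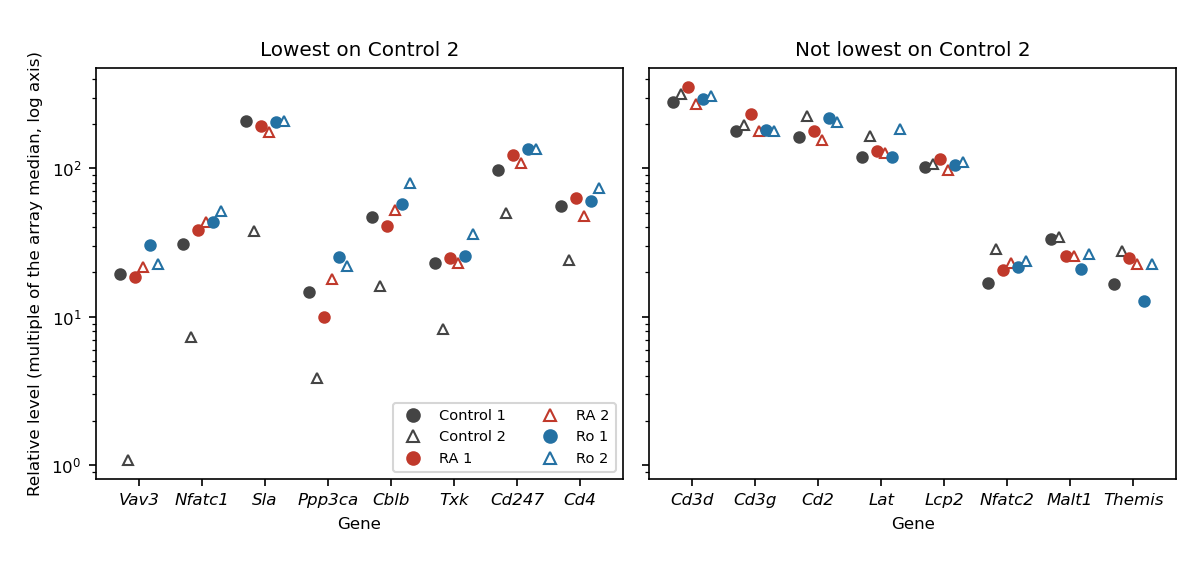
Relative levels (log axis) of 16 genes on each of the 6 arrays, with circles for replicate 1 and triangles for replicate 2. In the left panel the Control 2 triangle lies below the other 5 arrays in each of the 8 genes, from 1.08 for Vav3 to 49.8 for Cd247, and in the right panel it does not, and levels of different genes are not comparable.

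RA and Ro were compared over their own 4 arrays, with the spread taken from all 6. In sign, 35 of the 43 genes were lower in RA than in Ro and 8 were higher, with a median log2 difference of -0.20, against -0.14 over all genes tested, of which 65.7% were lower. None of these differences passed the test: 0 of 43 genes, and 0% of the 29531 probe sets, had an adjusted p under 0.05 in limma, and 0 of the 43, against 2.03% of probe sets, had an unadjusted p under 0.05. Both RA arrays lay below both Ro arrays in 18 of the 43 genes (41.9%), against 28% of probe sets and 31.5% of genes tested, and above them in 0 of the 43, against 9.29% of probe sets and 8.44% of genes. The split depended on the scaling: with quantile normalization the median of all genes tested moved to -0.00064, that of the 43 genes to -0.08, and the split to 28 lower and 15 higher, with 5 genes without overlap in each direction. With the values as deposited the split was 39 lower and 4 higher, and the median of all genes tested was -0.24. The shares of all genes by sign and without overlap are not given here for these other scalings. These counts therefore stand without a background and are not read as a result about the 43 genes.

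The largest of the differences without overlap were in Ppp3ca, at -0.81 (SE 0.63), which acts after the calcium signal, and Plcg1, at -0.66 (SE 0.36), which acts before it. The negative regulators Ubash3a and Cblb followed at -0.58 (SE 0.36) and -0.55 (SE 0.52), and the exchange factors Vav1 and Sos1 at -0.48 (SE 0.30) and -0.45 (SE 0.41). Each had an adjusted p of 1 in limma. After quantile normalization the RA and Ro arrays of Vav1 and Ppp3ca still did not overlap, whereas those of Plcg1, Ubash3a, Cblb and Sos1 did. By role, 11 of the 12 adaptors, exchange factors and effectors had a negative sign, with a median of -0.28. So had 10 of the 11 phosphatases, ligases and other regulators (median -0.17) and 5 of the 5 calcineurin and NFAT genes (median -0.21). With quantile normalization these counts were 7, 8 and 4. The 5 receptor chains and coreceptor had a median of -0.21, with 3 of the 5 negative. No gene of any role passed the threshold, and the intervals of the receptor genes were wide. The 95% interval of RA minus Ro ran from -0.55 to 0.66 for Cd3d and from -0.45 to 0.79 for Cd3g. It ran from -0.98 to 0.57 for Cd3e, from -1.07 to 0.65 for Cd247 and from -1.29 to 0.75 for Cd4. That of Cd28 ran from -0.87 to 0.98 and that of Zap70 from -0.79 to 1.04. The largest positive value was that of Themis, 0.47 (SE 0.40), whose RA and Ro arrays overlapped. All 4 probe sets of Themis had a positive sign, from 0.33 to 0.57. In the other 3 both RA arrays lay above both Ro arrays, as they did in the chosen one after quantile normalization. In a limma fit of the 4 RA and Ro arrays alone, 0 of the 43 genes passed, against 0.0287% of 27900 probe sets, with a lowest adjusted p of 0.795.

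**Figure D3:**
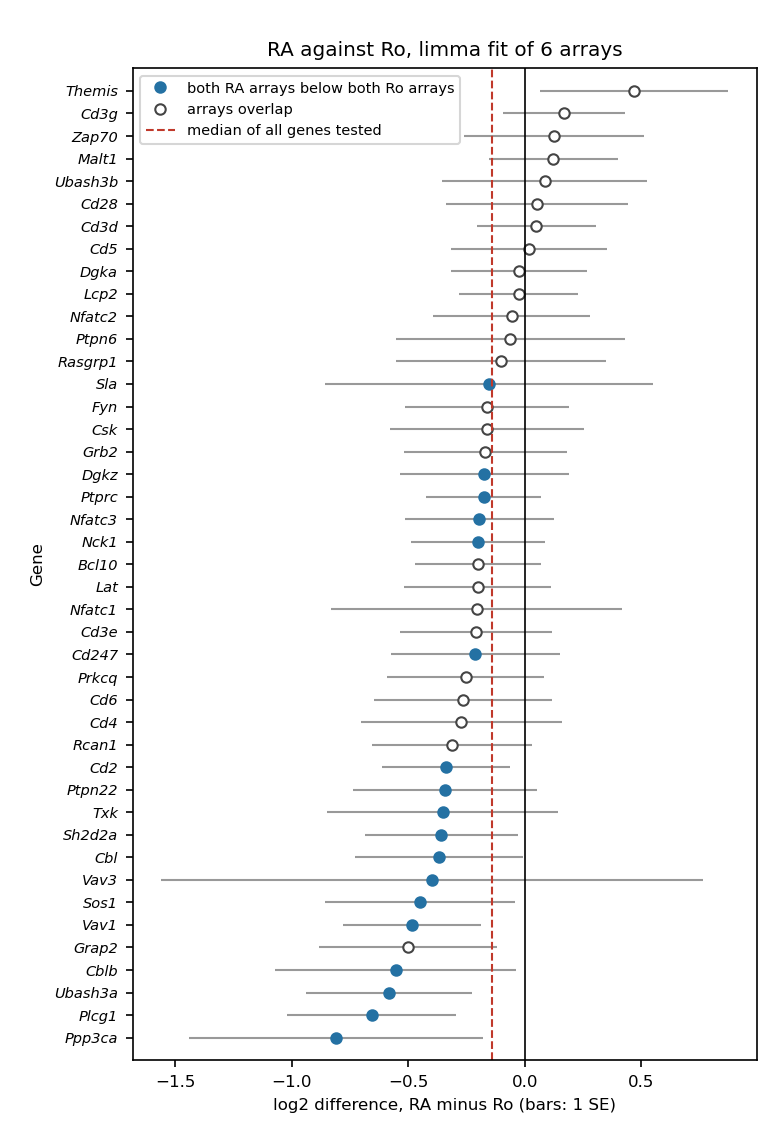
Log2 difference RA minus Ro of each of the 43 genes with bars of 1 SE from limma, in which filled points are genes with both RA arrays below both Ro arrays. The dashed line is the median of all genes tested, -0.14, and the points run from -0.81 for Ppp3ca to 0.47 for Themis.

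RA and Control, and Ro and Control, were compared in the same fit, and since both comparisons use the 2 Control arrays their values are given side by side only. In RA minus Control, 37 of the 43 genes were higher and 6 lower in sign, with a median of 0.49, against 0.13 over all genes tested, of which 60.7% were higher. The groups did not overlap in 15 genes higher in RA, against 21.2% of probe sets and 25.5% of genes tested, and in 1 lower, Malt1, against 9.82% of probe sets and 8.4% of genes. In Ro minus Control, 39 were higher and 4 lower, with a median of 0.65, against 0.25 over all genes, of which 66.1% were higher. The groups did not overlap in 28 genes higher in Ro, against 30.9% of probe sets and 35.9% of genes tested, and in 1 lower, again Malt1, against 9.51% of probe sets and 7.07% of genes. In limma 0 of the 43 genes, and 0% of probe sets, had an adjusted p under 0.05 in either comparison. At an unadjusted p under 0.05 there were 0 of 43 in RA minus Control, against 2.46% of probe sets, and 8 of 43, all higher, in Ro minus Control, against 8.54% of probe sets and 9.02% of genes in that direction. The counts without overlap depended on the scaling. In RA minus Control they were 2 higher and 4 lower with quantile normalization and 1 higher and 4 lower as deposited. In Ro minus Control they were 9 and 1, and 17 and 1. The median of all genes tested moved too, with quantile normalization to 0.02 in RA minus Control and 0.01 in Ro minus Control. The shares of all genes without overlap are not given here for these scalings, so the counts stand without a background.

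In RA minus Control the largest differences without overlap were in Nfatc1, at 1.44 (SE 0.62), Rasgrp1, at 0.79 (SE 0.45), Csk, at 0.74 (SE 0.42), and Cd247, at 0.73 (SE 0.36). Ubash3b and Dgkz followed at 0.71 (SE 0.44) and 0.62 (SE 0.36). Each had an adjusted p of 0.864 in limma, as had Malt1 at -0.40 (SE 0.28). All 11 phosphatases, ligases and other regulators and all 5 receptor chains and coreceptor had a positive sign. A negative one was found in 3 of the 12 adaptors, exchange factors and effectors (7 of the 12 with quantile normalization). The positive signs did not all hold against Control 1 alone. Both RA arrays lay below it for Ptprc, Cbl and Sla, and above it for Cd3e, Cd247, Csk, Ubash3b, Dgka and Dgkz. They lay on either side of it for Cd3d, Cd3g, Cd4, Ptpn6, Ptpn22, Cblb and Ubash3a. In Ro minus Control the largest were Vav3, at 2.52 (SE 1.16), Ppp3ca and Nfatc1, both at 1.64 (SE 0.63 and 0.62), and Cblb, at 1.31 (SE 0.52). Txk and Sos1 followed at 1.14 (SE 0.50) and 1.10 (SE 0.41), and each of these 6 had an adjusted p of 0.52 in limma. Malt1 was at -0.53 (SE 0.28), with an adjusted p of 0.522. Its sign and the lack of overlap held in both comparisons as deposited and with quantile normalization, where the values were -0.55 in RA and -0.87 in Ro.

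The size of these differences, and for some genes their sign, depended on which Control array was in the fit. With Control 1 alone, the median over the 43 genes was 0.10 in RA minus Control, with values from -0.39 to 0.56, and 0.28 in Ro minus Control, with values from -0.51 to 0.87. Without Control 2 the named genes of RA minus Control were at 0.39 for Nfatc1, 0.25 for Cd247 and 0.11 to 0.14 for Rasgrp1, Csk, Ubash3b and Dgkz. Those of Ro minus Control were at 0.68 for Ppp3ca, 0.60 for Nfatc1, 0.58 for Sos1, 0.53 for Cblb, 0.44 for Vav3 and 0.40 for Txk. Malt1 was at -0.39 in RA and -0.51 in Ro. Neither comparison had a gene past an adjusted p of 0.05 in limma, and the lowest adjusted p was 1 in RA and 0.786 in Ro. With Control 2 alone the medians were 0.81 and 1.13. Then 16 of the 43 genes were called in RA, against 11.5% of probe sets and 7.7% of genes called higher, and 25 of the 43 in Ro, against 17.6% of probe sets and 14.1% of genes called higher, each of them in the higher direction. The largest were Vav3, at 4.21 in RA and 4.61 in Ro (adjusted p 0.00115 and 0.000743 in limma), Nfatc1, at 2.48 and 2.68, Sla, at 2.29 and 2.45, and Ppp3ca, at 1.79 and 2.60. Fits with 1 Control array assume that it varies as the RA and Ro arrays do. The marker sums also moved between the 2 Control arrays, down for mast cell, macrophage and cell cycle genes and up for NK cell genes, and their part in the result was not tested. T cell markers outside the list (7 of 9 analysed, 4 of them also in the wider pathway list) summed to 850.2 on Control 1, 733 on Control 2 and 868 to 1111 on the others, but within them Thy1, a T cell surface protein, was 393 on Control 2 against 133 to 191 elsewhere, and Ms4a4b was 55.4 against 270.2 to 347.

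**Figure D4:**
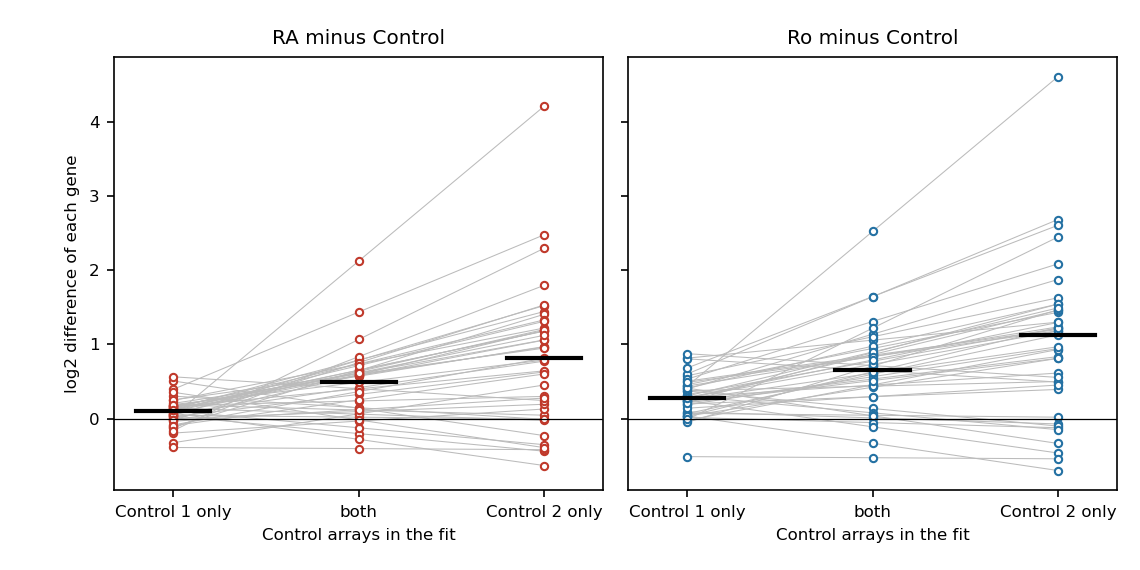
Log2 differences of the 43 genes from Control when the fit held Control 1 only, both Control arrays or Control 2 only, for RA (left) and Ro (right), with grey lines joining a gene and black bars at the medians. The medians run from 0.10 through 0.49 to 0.81 in RA and from 0.28 through 0.65 to 1.13 in Ro.

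The wider pathway was read from 93 further listed symbols, of which 76 were tested. In RA minus Ro 67 of the 76 were lower in sign, against 65.7% of all genes tested. Without overlap 37 (48.7%) were lower, against 31.5% of genes, and 2 (2.63%) were higher, against 8.44%. The largest were Dusp4, a MAP kinase phosphatase, at -1.20 (SE 0.96), the Tec kinase gene at -0.86 (SE 0.43), Nfkb2 at -0.84 (SE 0.37) and the adaptor gene Lax1 at -0.67 (SE 0.68). In RA minus Control 52 were higher, 20 of them (26.3% of the 76) without overlap, against 25.5% of genes. In Ro minus Control 60 were higher, 44 of them (57.9% of the 76) without overlap, against 35.9% of genes. Without Control 2 the counts were 48 in RA, or 63.2% against 67.1% of genes, and 69 in Ro, or 90.8% against 77.7%. None of the 76 passed an adjusted p of 0.05 in limma in any of the 3 comparisons, and 0 in RA minus Ro, 1 in RA minus Control and 12 in Ro minus Control had an unadjusted p under 0.05, against 2.03%, 2.46% and 8.54% of probe sets. Dusp4 was 4.91 and 44 in Control, 4.55 and 3.46 in RA, and 13.9 and 6.01 in Ro. Its value of -1.89 (SE 0.96) in RA minus Control thus goes with a high level on 1 Control array, and was -0.31 (SE 0.51) without it. Nfatc2ip, an NFAT-interacting protein, was 13.7 and 8.83 in Control, 27.8 and 21.5 in RA, and 37.4 and 18.8 in Ro, with differences from Control of 1.15 in RA and 1.27 in Ro (SE 0.43 each), and both Control arrays lay below the other 4. Without Control 2 they were 0.83 and 0.95 (SE 0.44 each). The other largest values without overlap were the adaptor Fyb at 0.90 (SE 0.50) and the kinase Camk4 at 0.81 (SE 0.39) in RA minus Control, and Pag1, which brings Csk to the membrane, at 1.51 (SE 0.57), Lax1 at 1.44 (SE 0.68) and the actin regulator Evl at 1.32 (SE 0.64) in Ro minus Control. Without Control 2, Fyb was at 0.12 (SE 0.24) and Camk4 at 0.30 (SE 0.28), and Pag1, Lax1 and Evl were at 0.57 (SE 0.27), 0.37 (SE 0.38) and 0.24 (SE 0.24).

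The further probe sets of the same genes gave a check on the choice of 1 probe set per gene. The 43 genes had 102 probe sets, and 57 of the 59 not used above passed the filter. Of these 57, 42 had the sign of the chosen probe set in RA minus Ro, 43 in RA minus Control and 45 in Ro minus Control. Over the 100 that passed, 69 (69%) were lowest on Control 2, against 39.6% of all probe sets tested.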

How the data were processed

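Probe set intensity values were deposited by the authors, who made them with MAS5 per the submitters' processing notes; the sources used here give no version, scaling target or genome build. Here each array was put on a log2 scale, log2(signal + 2.999), with the pseudocount at the 20th percentile of all values, which understates differences of dim genes, and centred on its median (deposited signal medians 16.2 to 23.7). Probe sets above the 40th percentile of their array on at least 2 of 6 arrays were tested (29531). All 6 arrays entered 1 limma 3.58.1 fit in R 4.3.3 (trended eBayes, 3 residual degrees of freedom, two-sided, Benjamini-Hochberg over all probe sets tested, threshold 0.05), which was tested on simulated data. The number of arrays limits the precision. Nothing in the labels ties replicates to separate animals or cultures, so the p-values reflect the spread among these samples alone, possibly a technical one. At most 0.00444% of values agreed between 2 arrays. Genes and gene lists were chosen with earlier results of these data known. Named in each comparison were genes past the threshold and the 6 largest differences without overlap in each direction, plus the CD3 chains, Cd4, Cd28 and Zap70 by array. Other genes are given by range or for their place in the pathway, chosen after their values were seen. From the wider pathway list up to 4 genes a comparison were named. Alternatives varied the pseudocount, scaling, filter, variance trend, replicate block, arrays fitted and probe sets.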

Additional observations from a re-analysis of the deposited data

How the results depend on the processing

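Alternatives moved the counts of genes without overlap and the calls. In RA minus Control, higher and lower counts without overlap, 15 and 1 in the reported fit, were 6 and 2 with the pseudocount at the median, 1 and 4 as deposited, and 2 and 4 with quantile normalization, and the lower count was 2 with the mean over all probe sets of a gene. In Ro minus Control the higher count of 28 was 17 as deposited and 9 with quantile normalization, and the lower count of 1 was 2 with the gene mean. In RA minus Ro the counts of 0 and 18 were 5 and 5 with quantile normalization, and the higher count was 1 with the gene mean. The share of all genes without overlap is not given here for each setting, so a moved count is not read as a result about these genes. The cause was not tested.

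Leaving out 1 array at a time gave, for RA minus Control, 0 to 16 of the genes past the threshold, 0 to 3409 probe sets, 14 to 33 genes higher and 1 to 6 lower without overlap. For Ro minus Control it gave 0 to 25 genes, 0 to 5206 probe sets, a median of 0.28 to 1.13, and 1 to 7 genes lower without overlap. For RA minus Ro it gave 0 to 12 probe sets, 0 to 9 genes higher and 18 to 34 lower without overlap, and a median of -0.29 (without Ro replicate 1) to -0.09 (without Ro replicate 2). Without Control replicate 1, 16 and 25 of the genes were called, and without Control replicate 2 none in either comparison.

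Same-numbered arrays deviated together at 0.0050 (Control and RA), -0.029 (Control and Ro) and 0.249 (RA and Ro), so the numbers were not taken as pairs. With a replicate block in the fit of 6 arrays, 0 probe sets passed and the medians stayed at -0.20, 0.49 and 0.65. In fits of 4 arrays, RA minus Ro called 8 probe sets without and 148 with the replicate block, and RA minus Control 5 with it. The named genes were chosen for groups of arrays that do not overlap, so leaving out 1 array could not change their sign. Other filters, no variance trend, the replicate block and fits of 4 arrays leave the difference itself unchanged. Signs under those settings are therefore no check. Of 360 values of named genes under all alternatives, 0 reversed. Their adjusted p in limma ran from 0.168 to 1 in RA minus Ro, 0.00417 to 1 in RA minus Control and 0.000743 to 0.864 in Ro minus Control. Vav3 on Control 2 lies near the array median.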
